A study of Mus musculus with 6 samples.

Results

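The genes described here license DNA replication, the step in which the replicative helicase is loaded onto chromatin ahead of S phase. They were taken as the array probes that carry a single gene symbol from a list of 10: the helicase subunits Mcm2 to Mcm7, the loading factors Orc1, Cdc6 and Cdt1, and the Cdt1 inhibitor Gmnn. Of these 10 genes 8 had such a probe, 1 each, among the 33012 probes of the array, and Mcm3 and Mcm7 are not analysed here. RNA of single mouse oocytes was measured on 3 arrays of Ago2 knockout mature oocytes and 3 arrays of wild-type GV oocytes, with 1 oocyte per array. The Ago2-deficient oocytes came from Ago2F/F, Zp3-Cre females, in which a floxed Ago2 allele is cut by Cre driven by the zona pellucida 3 promoter in growing oocytes. Such an allele may keep some function, and deletion was not measured in the oocytes that were put on the arrays. The wild-type oocytes are labelled as germinal vesicle (GV) stage, taken from oviducts of adult females and freed of cumulus cells with hyaluronidase, so that genotype and stage cannot be told apart in any difference given below. The methods give that source and treatment, with adult females, for ovulated metaphase II oocytes. The labelled stage and the labelled source of the wild-type oocytes are thus at odds, and their stage is not certain. The sources used here give no strain, and nothing says that the oocytes came from separate animals. The p-values below therefore cover the spread among these 6 oocytes, which may in part be technical. On a single-cell array, a loss of a transcript and a lower yield of RNA from that oocyte cannot be told apart.

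The origin recognition complex, of which Orc1 is the largest subunit, marks replication origins. Cdc6 and Cdt1 then load the ring-shaped helicase built from Mcm2 to Mcm7, and geminin, the product of Gmnn, binds Cdt1 and prevents loading outside its proper phase. No S phase separates the meiotic divisions, and the egg carries a store of licensing factors for the rapid cycles of the early embryo. In Xenopus oocytes, competence to replicate DNA is gained during maturation through the synthesis of Cdc6. In proliferating cells many of these genes are switched on by E2F transcription factors.

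Most promoter windows given for these genes hold short E2F words, and those of the 4 genes called lower in Ago2-deficient oocytes are shown. A link between these words and the differences in signal was not tested. RefSeq windows of 300 bases, 250 before and 50 from the annotated start on (build GRCm38.p6), were given for 6 of the 8 genes on the array, and Mcm4 and Gmnn are named only. The words TTTCCCGC, TTTCGCGC, TTTGCCGC and TTTGGCGC were searched on both strands. At least 1 was found in the windows of Orc1, Cdc6, Cdt1, Mcm5 and Mcm6, or 5 of 6, and none in that of Mcm2, beside 2.26% of 32851 windows of all genes. A match is a description and no proof of a bound site. The windows lie at chr11:98907901-98908200 (Cdc6, plus strand), chr8:122567765-122568064 (Cdt1, plus strand), chr8:75109259-75109558 (Mcm5, plus strand) and chr1:128359656-128359955 (Mcm6, minus strand). They are printed 5′ to 3′ on the strand of the gene, with the E2F words in capitals.
Cdc6: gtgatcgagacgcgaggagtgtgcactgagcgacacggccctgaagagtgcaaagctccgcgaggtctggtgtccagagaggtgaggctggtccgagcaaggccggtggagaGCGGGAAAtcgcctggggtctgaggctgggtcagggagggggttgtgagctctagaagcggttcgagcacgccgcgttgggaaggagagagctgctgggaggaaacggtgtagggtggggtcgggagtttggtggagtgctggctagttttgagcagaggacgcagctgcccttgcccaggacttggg
Cdt1: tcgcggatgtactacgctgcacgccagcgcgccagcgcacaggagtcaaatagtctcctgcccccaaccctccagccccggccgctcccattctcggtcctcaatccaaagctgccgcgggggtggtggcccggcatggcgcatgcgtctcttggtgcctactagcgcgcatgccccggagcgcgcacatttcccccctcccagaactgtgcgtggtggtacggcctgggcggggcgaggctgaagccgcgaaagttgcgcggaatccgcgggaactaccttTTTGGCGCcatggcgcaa
Mcm5: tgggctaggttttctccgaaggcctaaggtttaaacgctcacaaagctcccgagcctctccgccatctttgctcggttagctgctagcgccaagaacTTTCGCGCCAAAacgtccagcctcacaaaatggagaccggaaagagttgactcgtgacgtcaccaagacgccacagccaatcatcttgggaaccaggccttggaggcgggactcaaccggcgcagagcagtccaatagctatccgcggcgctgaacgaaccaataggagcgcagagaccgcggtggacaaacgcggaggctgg
Mcm6: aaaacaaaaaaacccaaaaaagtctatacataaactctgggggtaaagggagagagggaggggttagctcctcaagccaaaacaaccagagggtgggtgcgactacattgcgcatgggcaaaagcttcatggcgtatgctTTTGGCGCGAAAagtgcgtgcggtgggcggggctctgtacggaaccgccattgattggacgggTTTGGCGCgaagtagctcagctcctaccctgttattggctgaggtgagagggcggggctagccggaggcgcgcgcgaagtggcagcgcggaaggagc
In Mcm5 and Mcm6 a pair of words on opposite strands overlap in a run of 12 bases, TTTCGCGCCAAA in Mcm5 and TTTGGCGCGAAA in Mcm6, and each run is the reverse complement of the other. It begins at position -153 in Mcm5 and at position -110 in Mcm6, with the start base at 0. This run was noticed after the windows were read, and it was found in 4 of the 32851 windows, these 2 included. The word of Cdt1 lies after the start, at position 32, and those of the other 4 genes lie before it. The CCAAT box, a common promoter element searched on both strands, overlapped no E2F word and was found in 4 of the 6 windows (Orc1, Mcm2, Mcm5 and Mcm6) and in 37.4% of all windows.

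**Figure D1:**
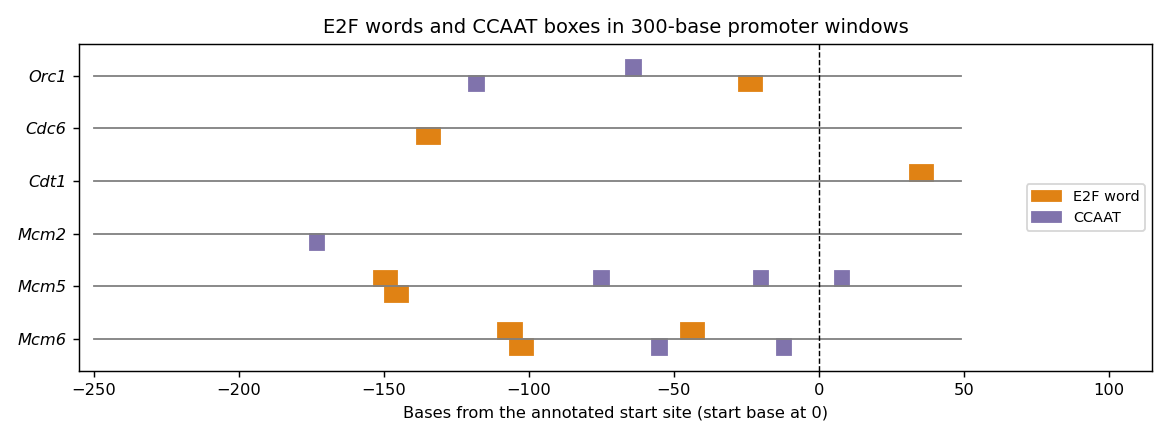
Positions of E2F words (orange) and CCAAT boxes (purple) in the promoter windows of 6 licensing genes; the horizontal axis gives bases from the annotated start site, and boxes above or below a line lie on the strand of the gene or on the opposite strand. Orc1, Cdc6, Cdt1, Mcm5 and Mcm6 hold at least 1 E2F word and Mcm2 holds none.

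Detection of a probe was set at a signal-to-noise ratio (S/N) of 3 or more. Of the 33012 probes, 4620 to 6798 were detected in Ago2-deficient oocytes and 10650 to 11334 in GV oocytes. Genes that every array of either group detected were tested with limma on the deposited quantile-normalized log2 signals. A call needed an adjusted p below 0.05 together with a change of more than 2-fold. The same test was run on 4 other scalings, here named median-scaled (each array brought to 1 median), unscaled, loess-scaled (cyclic loess) and centred (each array centred on the probes that all 6 arrays detected). Among the 7915 genes the median difference was -1.39 on the quantile-normalized values and between -3.08 and -0.36 on the others. Differences below are on the quantile-normalized values unless another scaling is named. The Ago2 probe was detected in 0 Ago2-deficient and 1 GV oocyte, so it checks no genotype. Of 14 oocyte markers, 8 to 10 were detected in Ago2-deficient and 13 to 14 in GV oocytes, and 10 of the 13 tested were called lower in Ago2-deficient oocytes, beside 44.8% of all genes tested. Of 15 markers of cumulus and granulosa cells, 2 to 5 were detected in Ago2-deficient and 4 to 6 in GV oocytes, with summed levels (log2) of 13.84 to 15.31 in Ago2-deficient and 12.32 to 12.89 in GV oocytes. Of 12 markers of other ovarian and blood cells, 2 to 3 were detected in Ago2-deficient and 3 to 4 in GV oocytes, with summed levels of 17.75 to 18.79 in Ago2-deficient and 16.40 to 16.80 in GV oocytes. No marker was listed at 0, and Amh, Has2, Cyp17a1 and Hba-a1 were detected on no array. Btc and Ereg, growth factors of the cumulus list, and Dcn, a matrix protein of the other list, were detected in every Ago2-deficient oocyte. No GV oocyte detected them, so they entered the test through the Ago2-deficient arrays alone. Their floored folds, a measure defined for Cdc6 below, were 71.2-fold, 24.4-fold and 15.3-fold higher in Ago2-deficient oocytes. Of the 5 cumulus and granulosa markers tested 2 were higher and 3 lower, namely Inha (-2.68), Hsd17b1 (-2.46) and Nr5a2 (-3.54). These 3 entered through the GV arrays alone, and Inha and Hsd17b1 were not called on the loess-scaled or centred values. All 3 tested markers of other cells were higher, although the differences of Col1a2 (1.68) and Krt8 (1.61) turned on the median-scaled values (-0.13 and -0.66). The part of these markers, and of the lower number of probes detected, in the results below was not tested.

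Fewer licensing genes were detected in Ago2-deficient mature oocytes than in GV oocytes. The same held for all probes (4620 to 6798 against 10650 to 11334), so the lower count is not particular to these genes. Each GV oocyte had 7 of the 8, all but Mcm2, whereas the Ago2-deficient oocytes had 3, 4 and 4. The means were 3.67 ± 0.58 genes in Ago2-deficient and 7 ± 0 in GV oocytes (SD, n = 3 arrays each, two-sided exact permutation p = 0.1, which is the lowest value possible with 3 arrays in each group). Mcm4, Mcm5 and Gmnn were detected on all 6 arrays, Cdc6 and Mcm6 in no Ago2-deficient oocyte, and Orc1 and Cdt1 in 1 Ago2-deficient oocyte each. Of the 7 genes found in every GV oocyte, 2 were thus found in no Ago2-deficient oocyte, beside 33.9% of the 7668 genes tested that every GV oocyte held, and 3 were found in every Ago2-deficient oocyte, beside 32.6%.

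In the test, Cdc6, Cdt1, Mcm5 and Mcm6 were lower in Ago2-deficient oocytes, Gmnn was higher, and Orc1 and Mcm4 were not called. The 4 lower genes stand beside 44.8% lower among all tested genes, and the 1 higher gene beside 17.4% (62.2% in either direction). Of the 7 members that were tested, 4 entered through the GV arrays alone (Orc1, Cdc6, Cdt1 and Mcm6). A gene that enters in this way went undetected in at least 1 Ago2-deficient oocyte, and 58.8% of such genes were called lower, or 80.5% where no Ago2-deficient oocyte held them, so the count of lower members says little about licensing genes as a group. In each of the 7 the arrays of the groups did not overlap, as in 70.4% of all tested genes and 76.8% of those detected on all 6 arrays. The share of all genes called depended on the scaling. It was 78.6% lower and 3.93% higher on the median-scaled values, 60.4% and 7.69% on the unscaled, 31.8% and 24.7% on the loess-scaled, and 39.7% and 16.4% on the centred ones.

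Of the loading factors, Cdc6 and Cdt1 were lower in Ago2-deficient oocytes and Orc1 was not called. Cdc6, the ATPase that joins the origin complex to load the helicase (gene at GRCm38.p6 chr11:98907709-98923942), had log2 signals of 7.51, 7.25 and 6.85 in Ago2-deficient oocytes, against 12.83, 12.24 and 12.83 in GV oocytes. Its S/N was -1.02, 0.66 and 1.17 in Ago2-deficient oocytes and 65.2, 48.7 and 56.9 in GV oocytes. The probe was thus among the clear signals of every GV oocyte and in the noise of every mutant oocyte. The log2 difference was -5.43 (limma, standard error 0.36 and adjusted p = 0.000130). A floored fold compares the group means after any probe dimmer than everything detected on its array was given that array's dimmest detected signal. The undetected Cdc6 signals were all brighter than that floor, so its floored fold, 43.0-fold lower, equals the fitted fold. It is not a minimum change, since the confidence interval of the fitted log2 difference, -6.28 to -4.57, includes smaller ones. Floored folds of other genes are likewise estimates and not minimum changes. For Cdc6 the floored fold was 9.10-fold on the loess-scaled and 141-fold on the median-scaled values, the outermost of 5 scalings.

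Cdt1, a further loading factor and the target of geminin (gene at chr8:122568015-122573130), had log2 signals of 6.52, 7.96 and 9.82 in Ago2-deficient oocytes, against 12.25, 11.79 and 12.07 in GV oocytes. Its S/N was 0.01, 2.96 and 5.79 in Ago2-deficient oocytes and 59.7, 53.2 and 56.4 in GV oocytes. The Ago2-deficient oocytes were spread widely, with only replicate 3 above the detection limit and replicate 2 just under it. The log2 difference was -3.93 (limma, standard error 0.80 and adjusted p = 0.00525) over all arrays. Leaving out Ago2-deficient replicate 3 gave -4.79, and leaving out Ago2-deficient replicate 1 gave -3.15. It was -2.02 on the loess-scaled and -5.97 on the median-scaled values, the outermost of 5 scalings. Orc1 (gene at chr4:108575705-108616030) had log2 signals of 7.03, 9.62 and 8.13 in Ago2-deficient oocytes, against 9.93, 9.85 and 9.85 in GV oocytes. Replicate 2 of the Ago2-deficient oocytes, the only one that detected it (S/N 4.87), lay near the GV oocytes and the other ones well below. Orc1 differed by -1.61 (95% confidence interval -3.17 to -0.06, adjusted p = 0.0671 from limma) and was not called. It was called without Ago2-deficient replicate 2 (-2.29, adjusted p = 0.0066), and on the median-scaled (-3.07) and unscaled values (-1.97), and it differed by 0.20 on the loess-scaled ones.

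Of the helicase subunits, Mcm5 and Mcm6 were lower in Ago2-deficient oocytes, Mcm4 was not called and Mcm2 was not detected. Mcm5 (gene at chr8:75109468-75128439) had log2 signals of 14.28, 13.96 and 14.24 in Ago2-deficient oocytes, against 17.17, 17.46 and 17.41 in GV oocytes. It was detected on all 6 arrays, with S/N of 10.01 to 33.28 in Ago2-deficient and 61.93 to 71.45 in GV oocytes, so that its difference rests on measured signals in both groups. The means were 14.16 ± 0.17 in Ago2-deficient and 17.35 ± 0.15 in GV oocytes (SD, n = 3), a log2 difference of -3.19 (limma, standard error 0.30 and adjusted p = 0.000300), or 9.12-fold lower. It was -3.16 on the loess-scaled, -3.72 on the centred, -4.83 on the unscaled and -5.93 on the median-scaled values. Among the 2497 genes detected on all 6 arrays, whose median difference was 0.83, 20.2% were called lower and 5.85% had a lower difference than Mcm5. Mcm6 (gene at chr1:128331575-128359705) had log2 signals of 6.89, 5.11 and 7.08 in Ago2-deficient oocytes, against 10.45, 10.48 and 10.72 in GV oocytes. It was clear in every GV oocyte (S/N 30.0 to 38.9) and undetected in every Ago2-deficient one (S/N -3.29 to 1.29), and the spot of Ago2-deficient replicate 3 was left empty in the series table. The floored fold of Mcm6 was 14.8-fold lower. Its fitted log2 difference was -4.19 (limma, standard error 0.57, confidence interval -5.56 to -2.83 and adjusted p = 0.00102), and -3.57 without Ago2-deficient replicate 2. The floored fold was 7.03-fold on the loess-scaled, 8.24-fold on the centred and 38.2-fold on the median-scaled values.

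Mcm4 (gene at chr16:15623897-15637400) had log2 signals of 13.73, 14.09 and 14.73 in Ago2-deficient oocytes, against 15.17, 14.93 and 15.18 in GV oocytes. The highest Ago2-deficient oocyte lay just under the lowest GV oocyte. Mcm4 differed by -0.91 (95% confidence interval -1.80 to -0.02, adjusted p = 0.0690 from limma) and was not called, but it was called without Ago2-deficient replicate 3 (-1.19, adjusted p = 0.0207) and under each of the 4 other scalings, by -1.01 (loess-scaled) to -4.06 (median-scaled). Relative to the median of all tested genes it stood at 0.48 on the quantile-normalized values and between -0.98 and -0.65 under the other scalings, so its place among other genes was not settled. Mcm2 (gene at chr6:88883474-88898780) was detected on no array and was not tested. Its log2 signals were 7.34, 12.09 and 7.16 in Ago2-deficient oocytes and 5.09, 6.97 and 7.18 in GV oocytes. The single high value, in Ago2-deficient replicate 2, had an S/N of 2.50, short of the limit.

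Gmnn, which encodes the inhibitor of Cdt1 (gene at chr13:24751845-24761937), was the member whose direction depended most on the scaling. It had log2 signals of 13.35, 13.32 and 14.16 in Ago2-deficient oocytes, against 12.80, 12.54 and 12.21 in GV oocytes, and was detected on all 6 arrays. On these values the Ago2-deficient oocytes all lay above the GV oocytes, with a log2 difference of 1.09 (limma, standard error 0.38 and adjusted p = 0.0421), or 2.13-fold higher. That direction held on the loess-scaled values (1.24) and on no other scaling, with -0.05 on the centred, -1.16 on the unscaled and -2.26, called lower, on the median-scaled values. The call was also lost without Ago2-deficient replicate 3 (0.82, adjusted p = 0.0766) and without GV replicate 1, 2 or 3 (adjusted p = 0.0727, 0.115 and 0.149). Relative to the median of all tested genes, Gmnn was higher under all 5 scalings, by 0.82 to 2.48. The median-scaled, unscaled and centred values differ by a constant per array. Relative to that median they give the same value (0.82 for Gmnn) and are not separate evidence. Among genes detected on all 6 arrays Gmnn was not unusual, since 55.4% had a lower difference and 43.5% were called higher. Cdc6, Cdt1, Mcm5 and Mcm6 were called lower under all 5 scalings, beside 24.9% of all tested genes. They stood 1.66 to 4.06 below the median of all tested genes in each. Cdc6, Cdt1 and Mcm6 entered the test through the GV arrays alone, which favours lower differences. Their lower calls and their place below that median are thus in part built in.

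**Figure D2:**
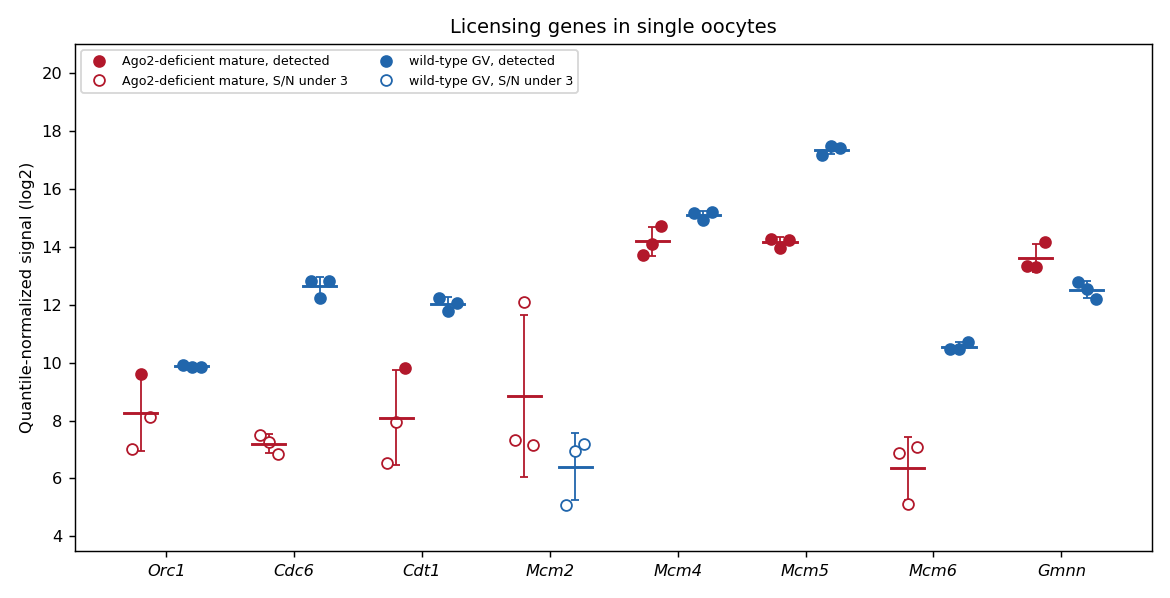
Quantile-normalized log2 signal (vertical axis) of the 8 licensing genes in 3 Ago2-deficient mature oocytes (red) and 3 wild-type GV oocytes (blue); filled circles are detected, open circles have an S/N under 3, and lines with bars are the mean and SD. Cdc6 and Mcm6 lie at the undetected level in each Ago2-deficient oocyte, Mcm5 is detected and lower there, and the higher position of Gmnn turns on the median-scaled, unscaled and centred values.

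**Figure D3:**
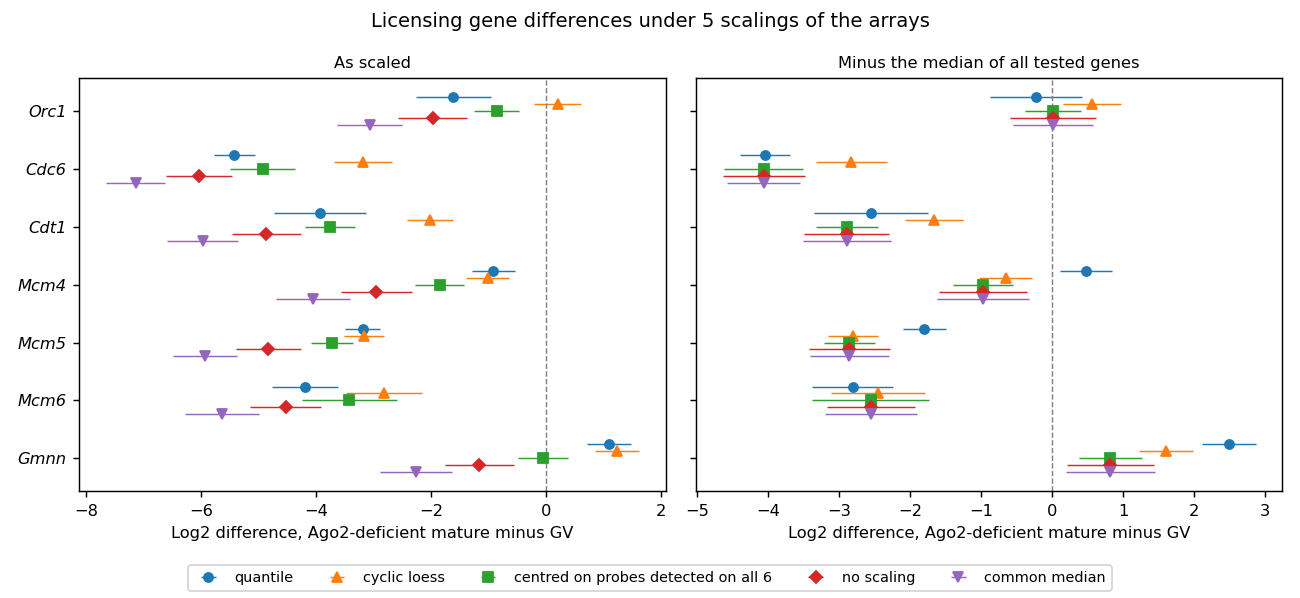
Difference in log2 signal (horizontal axis, Ago2-deficient mature less wild-type GV) of the 7 tested licensing genes under 5 scalings of the arrays, as scaled (left) and after subtracting the median of all tested genes (right); bars are standard errors from limma. Cdc6, Cdt1, Mcm5 and Mcm6 lie left of 0 throughout, Gmnn crosses 0 on the left and stays right of 0 on the right, and Orc1 crosses 0 on both. The median-scaled, unscaled and centred values differ by a constant per array and so coincide on the right.

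Since the direction of Gmnn depended on the scaling, its signal was set against the other members within each array, where a factor common to the array cancels. These 7 pairs were chosen after the values were seen. On the deposited signals, the log2 difference Gmnn minus Mcm5 was -0.94, -0.69 and -0.10 in Ago2-deficient oocytes, against -3.66, -4.44 and -4.64 in GV oocytes. The groups were far apart, by 3.67 (standard error 0.39). Gmnn minus Mcm4 was -0.60 ± 0.23 in Ago2-deficient and -2.40 ± 0.40 in GV oocytes (SD, n = 3), a change of 1.80. Mcm4 minus Mcm5 was -0.58, 0.13 and 0.53 in Ago2-deficient oocytes, against -1.58, -2.18 and -1.79 in GV oocytes, a change of 1.88 (standard error 0.37). These 3 pairs join genes detected on all 6 arrays, so the signals of Gmnn, Mcm4 and Mcm5 changed unequally between the groups.
Gmnn minus Cdt1 was 4.16, 4.33 and 4.21 in Ago2-deficient oocytes, against 0.57, 0.86 and 0.15 in GV oocytes, a change of 3.71 that rests in part on Cdt1 signals under the detection limit. Gmnn minus Cdc6 and Gmnn minus Mcm6 were higher in Ago2-deficient oocytes by 4.88 and 3.37, but Cdc6 and Mcm6 were detected in none of these oocytes, so that both values are set against signals in the noise. In these 6 pairs the groups did not overlap, and the exact permutation test gave its smallest p = 0.1 (two-sided, adjusted p = 0.117 over the 7 pairs). The pairs share genes and are not independent. How often pairs of other genes separate the groups was not measured. Single genes did so in 70.4% of those tested on the quantile-normalized values, so the separation is not shown to be particular to licensing genes. Gmnn minus Orc1 differed by 0.81 with overlapping groups (exact permutation p = 0.3). On the quantile-normalized values the changes were 4.28 for Gmnn minus Mcm5, 2.01 for Gmnn minus Mcm4, 2.28 for Mcm4 minus Mcm5 and 5.03 for Gmnn minus Cdt1. Gmnn minus Orc1 changed by 2.71 there, with groups that did not overlap (exact permutation p = 0.1).

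**Figure D4:**
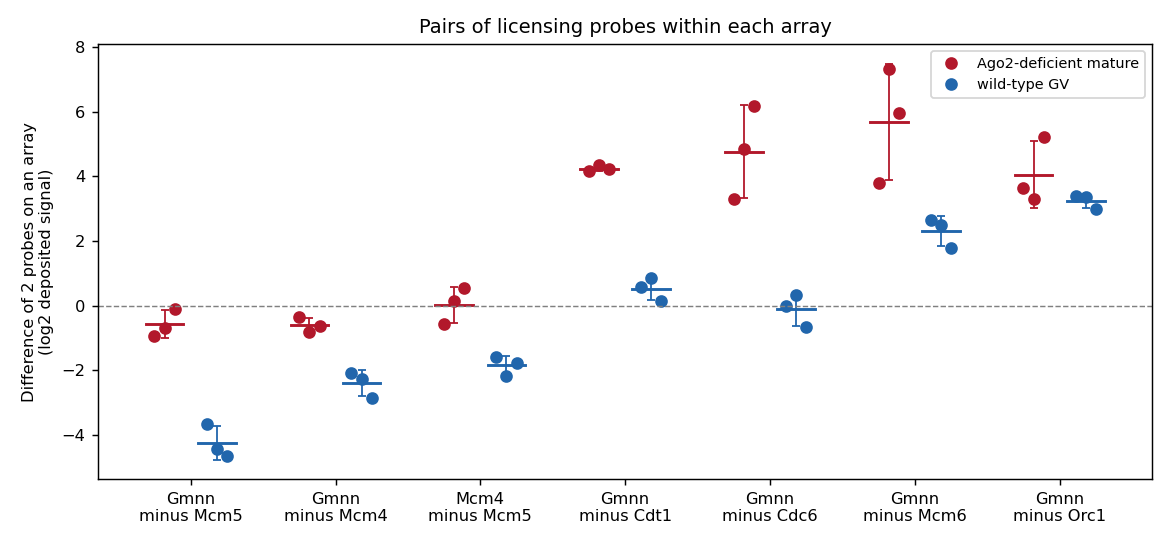
Difference of the log2 deposited signals of 2 probes on the same array (vertical axis) for 7 pairs of licensing genes in Ago2-deficient mature (red) and wild-type GV oocytes (blue); circles are arrays, and lines with bars are the mean and SD. The groups separate in the 6 pairs other than Gmnn minus Orc1, with Gmnn minus Mcm5 at -0.94 to -0.10 in Ago2-deficient and -4.64 to -3.66 in GV oocytes.

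Other replication genes, in 6 lists with 97 genes, were mostly lower or not called in Ago2-deficient oocytes, and some were higher. Of the 49 tested, 22 were lower and 7 higher, or 44.9% and 14.3%, beside 44.8% and 17.4% of all tested genes, so these lists moved about as often as other genes did. Most of the 49 entered through the GV arrays alone and 0 through the Ago2-deficient arrays alone, which favours lower differences. Of all genes that entered through the GV arrays alone, 58.8% were called lower. A fit of only the genes detected on all 6 arrays held 18 of them, of which 3 were lower and 7 higher. Of all 2497 genes in that fit, 543 were lower and 1128 higher. Under all 5 scalings 14 of the 49 were lower and 3 were higher, beside 24.9% lower and 3.93% higher of all tested genes. The 3 were Lig1, E2f2 and Rrm2b.
Of 5 other origin recognition and loading genes tested, 2 fell and 0 rose (median log2 difference -2.65). Through the GV arrays alone 4 of these 5 had entered. By the floored fold, Orc5, a further subunit of the origin complex, was 15.7-fold lower and Mcm3ap, which binds Mcm3, 10.2-fold lower. Both were undetected in every Ago2-deficient oocyte. On the loess-scaled values these floored folds were 3.81-fold and 3.59-fold, the lowest of 5 scalings. Orc6 (-0.83, adjusted p = 0.249) and Mcmbp, which binds the helicase (-1.54, adjusted p = 0.200), were not called by limma on these values or the loess-scaled ones, but were called lower on the median-scaled (-4.02 and -4.32), unscaled (-2.91 and -3.21) and centred values (-1.80 and -2.10).
Of 9 origin firing genes, 5 fell and 0 rose (median -1.57), and 7 had entered through the GV arrays alone. Gins4, a subunit of the GINS complex that completes the active helicase, had log2 signals of 8.85, 10.34 and 8.14 in Ago2-deficient oocytes, against 15.29, 15.68 and 15.32 in GV oocytes. It was detected in 1 Ago2-deficient oocyte and differed by -6.32 (limma, standard error 0.59 and adjusted p = 0.000274), -6.93 without Ago2-deficient replicate 2. Clspn and Topbp1, which act in the replication checkpoint, were lower. Their floored folds were 10.2-fold for Clspn and 7.94-fold for Topbp1 (4.01-fold and 3.27-fold on the loess-scaled values). Ccna2, cyclin A2, differed by -1.77, but lost its call without GV replicate 1 (-1.53, adjusted p = 0.0571), on the loess-scaled values (0.14) and on the centred ones (-1.28). Dbf4, the activator of the Cdc7 kinase (-1.17, adjusted p = 0.241), and Cdc45, which travels with the helicase (-0.69, adjusted p = 0.215), were not called by limma. Both were called lower on the median-scaled (-4.21 and -3.86), unscaled (-3.10 and -2.76) and centred values (-1.99 and -1.65), and Dbf4 also without Ago2-deficient replicate 3 (-2.00, adjusted p = 0.0234).

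Genes of the replication fork went both ways. Of 16 tested, 9 were lower and 3 higher (median -2.36), and 10 had entered through the GV arrays alone. By the floored fold, the primase subunit Prim1 was 30.1-fold lower (fitted log2 difference -5.12, and -5.75 without Ago2-deficient replicate 2). Pole, the catalytic subunit of polymerase epsilon, was 27.0-fold lower and the clamp loader subunit Rfc2 9.91-fold lower. Each was undetected in every Ago2-deficient oocyte. On the loess-scaled values the floored folds were 8.55-fold for Prim1, 6.77-fold for Pole and 2.54-fold for Rfc2. Lig1, the ligase that joins Okazaki fragments, was higher, with log2 signals of 15.91, 16.19 and 16.01 in Ago2-deficient oocytes, against 9.85, 10.44 and 11.53 in GV oocytes. Every array detected it, and the groups lay far apart, by 5.43 (limma, standard error 0.48 and adjusted p = 0.000247), with 2.77 to 6.19 over the 5 scalings. The sliding clamp Pcna (1.48) and the polymerase epsilon subunit Pole3 (1.59) were the other higher genes, named after their values were seen, and differed by -1.09 and -1.74 on the median-scaled values and by 0.015 and -0.64 on the unscaled ones. Rfc1 (-0.73, adjusted p = 0.307) and Rnaseh2c (-1.08, adjusted p = 0.0802) were not called by limma. Both were called lower on the median-scaled (-3.90 and -4.13), unscaled (-2.80 and -3.02) and centred values (-1.69 and -1.91), and Rnaseh2c also without Ago2-deficient replicate 3 (-1.37, adjusted p = 0.0418).

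Among 9 genes that control the stability of licensing factors, 2 were higher and 2 lower (median -0.32). Through the GV arrays alone 4 of these 9 had entered. Skp2, the F-box protein that sends Cdt1 for degradation, had log2 signals of 15.57, 16.55 and 14.64 in Ago2-deficient oocytes, against 11.34, 11.20 and 11.65 in GV oocytes. The Skp2 difference was 4.19 (limma, standard error 0.53 and adjusted p = 0.000749), while Skp1, which ties it to the cullin ligase, differed by -3.83 (adjusted p = 0.00134 from limma). Fbxo5, the inhibitor of the anaphase-promoting complex and so a guard of geminin, was higher by 3.58 (adjusted p = 0.000709), and Fzr1, an activator of that complex, differed by -2.93 (adjusted p = 0.00112). Skp2 and Fbxo5 lost their calls on the median-scaled values (1.23 and 0.90). Cdc20 (-0.15, adjusted p = 0.748) and Rbx1 (0.08, adjusted p = 0.880) were not called by limma. Both were called lower on the median-scaled (-3.43 and -3.21) and unscaled values (-2.33 and -2.10), and on the centred ones Cdc20 was called (-1.22) and Rbx1 was not (-0.99).
Of 6 tested genes of the E2f and Rb families, 1 was higher and 2 were lower (median 0.17). Through the GV arrays alone 3 of these 6 had entered. E2f2, an activator of S phase genes, had log2 signals of 15.47, 15.11 and 15.53 in Ago2-deficient oocytes, against 10.12, 11.08 and 11.60 in GV oocytes, a difference of 4.44 (limma, standard error 0.45 and adjusted p = 0.000374). By the floored fold, Rbl1, a pocket protein that represses E2F targets, was 3.64-fold lower and Tfdp2, a dimer partner of E2F proteins, 2.51-fold lower. Neither was called on the unscaled values (-1.21 and -1.24) or the centred ones (-0.11 and -0.13), and Tfdp2 also lost its call on the loess-scaled values (0.11), without Ago2-deficient replicate 2 (adjusted p = 0.0553), without GV replicate 2 (0.0703) and without GV replicate 3 (0.0924). E2f4 (-0.23, adjusted p = 0.583) and E2f5 (0.57, adjusted p = 0.468) were not called by limma. Both were called lower on the median-scaled values (-3.31 and -2.23) and E2f4 also on the unscaled (-2.20) and centred ones (-1.09), whereas E2f5 differed by -1.13 on the unscaled values and was called higher on the loess-scaled ones (1.72). E2f1 and E2f3 are not analysed here.
Of 4 nucleotide supply genes tested, 2 were lower and 1 higher (median -2.09), and 3 had entered through the GV arrays alone. Subunits of ribonucleotide reductase went opposite ways on the quantile-normalized values. Rrm2b, the subunit induced by p53, had log2 signals of 16.32, 16.27 and 16.06 in Ago2-deficient oocytes, against 10.17, 10.43 and 11.28 in GV oocytes, and was higher by 5.59 (limma, standard error 0.39 and adjusted p = 0.000150). Rrm2, the subunit used in S phase, had a floored fold of 5.05-fold lower on the quantile-normalized values. It was not called on the loess-scaled (-0.56) or the centred values (-1.32). Samhd1, which degrades nucleotides, had a floored fold of 6.43-fold lower, but lost its call on the loess-scaled values (-0.98). Of the 6 fits with an array removed, the Samhd1 call remained in the fit without Ago2-deficient replicate 1 (-3.84), and the other 5 gave adjusted p = 0.105 to 0.121. Dut, which removes dUTP, was not called by limma (-1.84, adjusted p = 0.0590), but leaving out Ago2-deficient replicate 1 (-1.05, adjusted p = 0.0461) or Ago2-deficient replicate 3 (-2.34, adjusted p = 0.0311) gave a call, as did the median-scaled (-4.75), unscaled (-3.64) and centred values (-2.53).

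**Figure D5:**
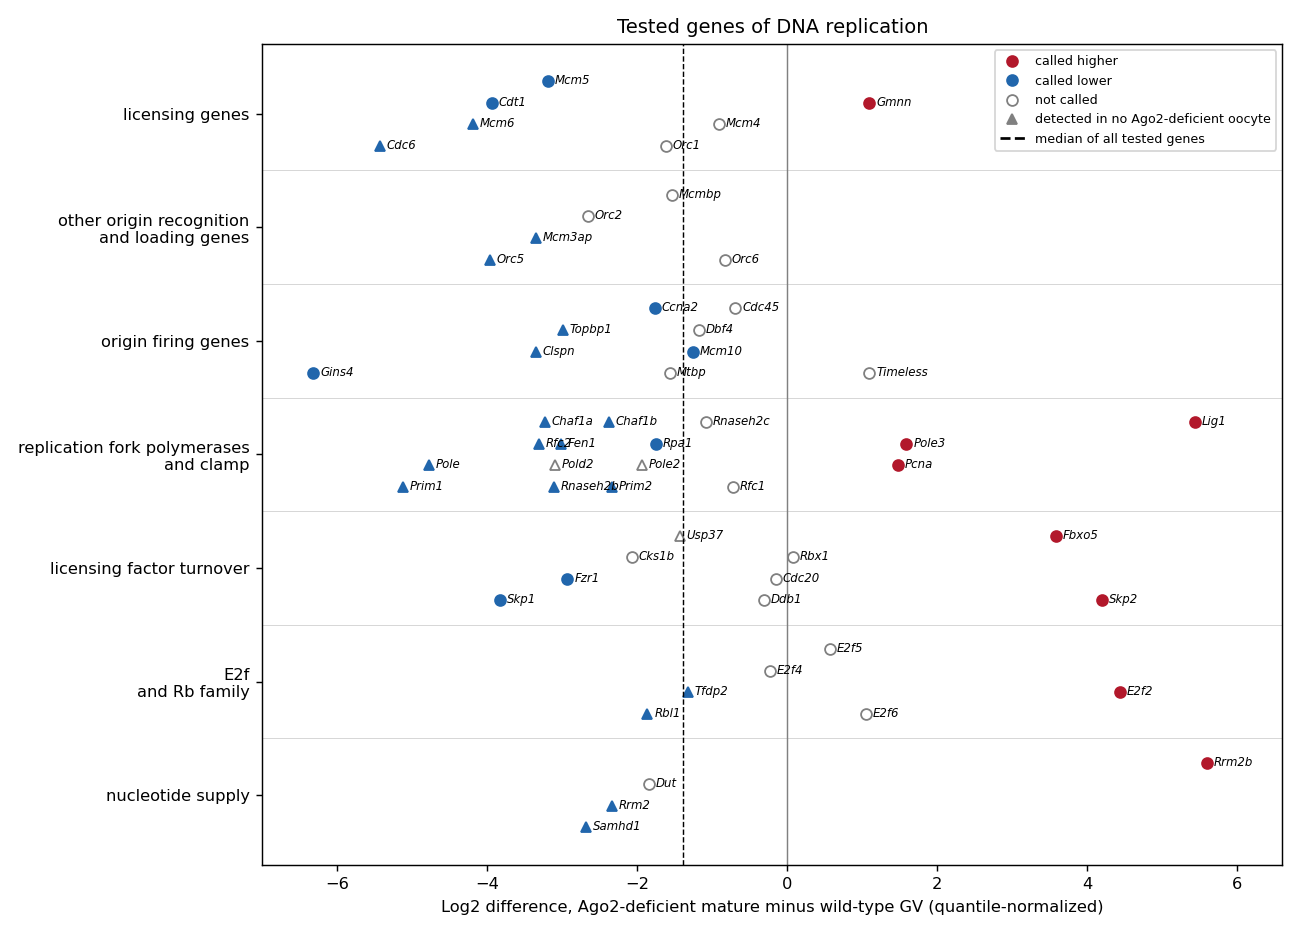
Difference in quantile-normalized log2 signal (horizontal axis, Ago2-deficient mature less wild-type GV) of the tested licensing genes and of 6 lists of replication genes; red and blue symbols are called higher and lower, open symbols are not called, triangles are detected in no Ago2-deficient oocyte, and a dashed line marks the median over all genes tested, -1.39. Lig1, E2f2 and Rrm2b lie farthest right of 0 and stay there under all 5 scalings, whereas Gmnn, Pcna, Pole3, Timeless, Rbx1, E2f5 and E2f6 move to the left of 0 on the median-scaled values, most of them under other scalings too, and Orc1, Ccna2, Tfdp2, Usp37 and Mtbp to the right on the loess-scaled ones.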

How the data were processed

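Single oocytes were profiled by the authors on Applied Biosystems V2.0 mouse arrays: amplified cDNA was transcribed into digoxigenin-labelled cRNA, hybridized and read by chemiluminescence. The deposited intensity of each probe is the scanner signal without scaling between arrays, beside a deposited S/N score and flag code. Log2 values, quantile normalized over the 6 arrays, were deposited too. The series table repeats them with 2675 cells empty.
Of 33012 probes, 14411 carry 1 gene symbol in the platform annotation, 247 several and 18354 none; 14402 gene identifiers matched RefSeq (GRCm38.p6). Unnamed probes counted as separate genes, and where several probes of a gene were tested, the one of highest mean in that scaling stood for it (among the lists this changed the probe of Timeless). The 8018 probes detected (S/N of at least 3) on all arrays of 1 group went into a limma fit (version 3.58.1, R 4.3.3) with Benjamini-Hochberg adjustment over all of them. Signals under 16 (2 values) were raised to 16 before other scalings were applied. The fit was tested on simulated data with 50 changes of each size. It recovered 10% of changes of log2 1.5, 24% of 2, 50% of 3 and 82% of 5, and 4 of 87 calls were false. The real fit called 4921 of 7915 genes, so its adjustment was less strict, and these rates may not hold for it. A gene that was not called may still have changed. The number of arrays limits the precision. Replicate numbers did not pair the arrays. The members and the lists were chosen with earlier results of these data known. Named genes are all members and, in each list, up to 4 called genes with the largest changes whose groups did not overlap and up to 2 not called with the highest mean. Alternatives covered scaling, filters, thresholds, variance model, block and each array left out. Plots were drawn with matplotlib 3.10.9 in Python 3.11.15.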

Additional observations from a re-analysis of the deposited data

How the results depend on the processing

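With arrays scaled to a common median 7 licensing genes were lower and 0 higher, 42 other replication genes were lower and 3 higher, and 6223 of all genes were lower and 311 higher, against 3543 lower and 1378 higher on the quantile-normalized values. With no scaling 0 licensing genes were higher, 38 replication genes were lower and 609 of all genes were higher (4778 lower), and cyclic loess gave 2515 lower and 1952 higher. Among probes detected on all 6 arrays, 1 licensing gene of 3 tested, 3 replication genes of 18 and 543 of 2497 genes were lower. In that fit 1 licensing gene, 7 replication genes and 1128 of all genes were higher, and the median difference was 0.83. The 1 higher licensing gene, Gmnn, was lost (0 higher) on the centred values, with no filter on dim probes, at an adjusted p under 0.01, with array weights and with the replicate block. Gmnn differed by -2.26 with a common median, -1.16 with no scaling and -0.047 with centring, and Orc1 by 0.20 with cyclic loess. With 1 array left out, 4 to 5 licensing genes were lower and 0 to 1 higher, and 20 to 27 other replication genes were lower and 6 to 8 higher. Replicate numbers paired no arrays (correlations of deviations across genes of -0.05, 0.03 and -0.03). With the number as a block 4 licensing genes were lower, and Gmnn had an adjusted p = 0.104. Cdc6, Cdt1, Mcm5 and Mcm6 kept direction and call under all these alternatives in which they were tested.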

Other observations

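By the rule for likeness (the smallest root mean square difference over the 6 arrays after subtracting each gene's own mean, among 4568 named genes tested), the nearest profile to Cdc6 was that of Efcab6 (0.19 on the log2 scale), to Cdt1 Emc7 (0.20), to Orc1 Rragc (0.14), to Mcm4 Obox1 (0.10), to Mcm5 Trub1 (0.04), to Mcm6 Mtus1 (0.19) and to Gmnn Ppia (0.14). Detection was not part of the rule. Trub1 was detected in 0 Ago2-deficient oocytes and Mcm5 in 3, and Mtus1 in 3 and Mcm6 in 0. Rragc (0 against 1) and Emc7 (2 against 1) differed less from their members, and Efcab6, Obox1 and Ppia matched theirs. The smallest of 4568 differences is small by selection, and shared regulation was not tested.

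Different probes of Timeless and of Rbx1 disagreed, and both genes were chosen here after their values were seen. Of the 2 Timeless probes, the one detected on every GV array and on no Ago2-deficient array differed by -2.43 (adjusted p = 0.00851 from limma) and lay between -4.11 and -0.58 on the other scalings. The other Timeless probe differed by 1.09 (adjusted p = 0.127), by 0.67 on the unscaled, 1.78 on the centred and 2.34 on the loess-scaled values, and by -0.44 on the median-scaled ones, where both probes were below 0. Of 3 Rbx1 probes tested, 1 differed by -4.36 (adjusted p = 0.00674 from limma), 1 by -1.57 and 1, the brightest, by 0.08, and on the median-scaled, unscaled and centred values all 3 were below 0.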
